A study of Homo sapiens with 3 samples.

Results

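The nuclear genes of respiratory complexes III, IV and V were followed in HepG2 cells, a human line from a liver carcinoma, after exposure to a P2X7 antagonist. The genes were taken by name, without readthrough genes and without numbered pseudogenes. The rule took names starting with UQCR for complex III and with COX4 to COX8 for complex IV. For complex V it took names starting with ATP5F1, ATP5M, ATP5P or ATP5IF1. Subunit genes with other names, such as CYC1 of complex III, are therefore not on this list. The rule took 46 of 62680 rows in the deposited table, and 37 of the 46 averaged 1 CPM or more over the libraries (CPM are counts scaled to a common library size), with 8 genes in complex III, 11 in complex IV and 18 in complex V. The groups, all of the WT genotype, were cells kept for 48 h with A740003 at 20 µM, with A438079 at 20 µM, or with PBS. The labels call both compounds antagonists of P2X7, an ATP-gated cation channel, and PBS the control, and name no solvent for the compounds. Each treatment was 1 library of a single line. There is therefore no replicate behind any difference, no p-value was computed, and every interval given is a 95% interval of counting error alone.

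Respiratory complexes III and IV pass electrons from ubiquinol through cytochrome c to oxygen and pump protons across the inner mitochondrial membrane. Complex V, the ATP synthase, lets the protons flow back through a rotating ring of c subunits and couples that flow to ATP synthesis in its F1 head. Catalytic subunits of complexes III and IV and the proton path of complex V include proteins encoded in mitochondrial DNA, while the genes described here lie in the nucleus, and some complex IV subunits have separate liver-type and muscle-type or testis-type genes.

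Expected counts (estimates by the authors that need not be whole) summed to between 19375462 and 19735540 per library, and scaling factors were 0.990 to 1.01. All 9 hepatocyte and HepG2 markers were detected, with summed levels of 22107 CPM with A740003, 23765 with A438079 and 21818 with PBS. Single markers differed in direction: ALB had 4817, 6184 and 6451 CPM and AFP 862, 1111 and 1205 CPM in these libraries, lowest with A740003, while APOB had 8551, 8147 and 6154 CPM, lowest with PBS. Both endothelial markers with a row, VWF and CDH5, were at 0 counts in every library. So were 2 of 3 leukocyte markers (PTPRC and CD3E), 3 of 4 stellate and fibroblast markers (COL1A1, COL1A2 and DCN) and KRT7 of 4 cholangiocyte markers. The other cholangiocyte markers were detected in the 3 libraries. In the same order, EPCAM had 217, 256 and 272 CPM, KRT19 75.4, 85.4 and 93.9 CPM, and SOX9 48.8, 53.0 and 64.0 CPM. The leukocyte marker CD68 had 31.8, 39.1 and 33.5 CPM, and PDGFRB had 2, 10 and 7 counts. In bulk RNA, fewer cells of a kind and less RNA per cell cannot be told apart.

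COX8A, a small membrane subunit gene of complex IV, was higher in the A740003 library than in the PBS library, and UQCRFS1, the gene of the Rieske iron-sulfur protein of complex III, was lower. No other measured gene of the 37 reached a ratio of 1.5 or its inverse with an interval that excluded 1, and with A438079 none did in either direction. Over all 12272 genes compared, the same size rule was met upward by 3.2% and downward by 10.6% with A740003, and upward by 1.63% and downward by 9.44% with A438079. Between the antagonists, A740003 over A438079, 0 of the 37 were called in either direction, against 2.51% of all genes upward and 2.74% downward. With so few genes, the counts of higher calls lie near these shares. Only the counts of lower calls over PBS, 1 and 0 of 37, lie under theirs. That is not particular to this list: the complex I and proteasome subunit genes had 0 lower calls over PBS with either antagonist. The genes of the list are also counted deeper than all genes, so these shares are not at equal depth. Short of the size rule, COX6A1 at 1.46, UQCR11 at 1.40 and ATP5MC1 at 1.35 times PBS with A740003, and COX8A at 1.44 times with A438079, had intervals above 1.

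By the interval alone, without a minimum size, 16 of the 37 genes (43.2%) lay above PBS with A740003 and 10 (27.0%) below, against 26.6% and 26.2% of all genes. With A438079, 15 (40.5%) lay above PBS and 4 (10.8%) below, against 22.9% and 23.2% of all genes. In A740003 over A438079, 15 (40.5%) lay above 1 and 10 (27.0%) below, against 16.1% and 16.8%. Both antagonist comparisons share the PBS library. These genes had a median of 1923 counts over the libraries, against 441 for all genes compared, and more counts give narrower intervals, so the shares are not at equal depth. The median log2 ratio of the 37 was 0.06 with A740003 and 0.04 with A438079 over PBS, beside 0.01 and -0.00 for all genes compared, and was 0.03 in A740003 over A438079, beside 0.00. With A740003 the median was -0.04 in complex III, 0.11 in complex IV and 0.08 in complex V. With A438079 the complex medians were -0.02, 0.05 and 0.03.

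**Figure D1:**
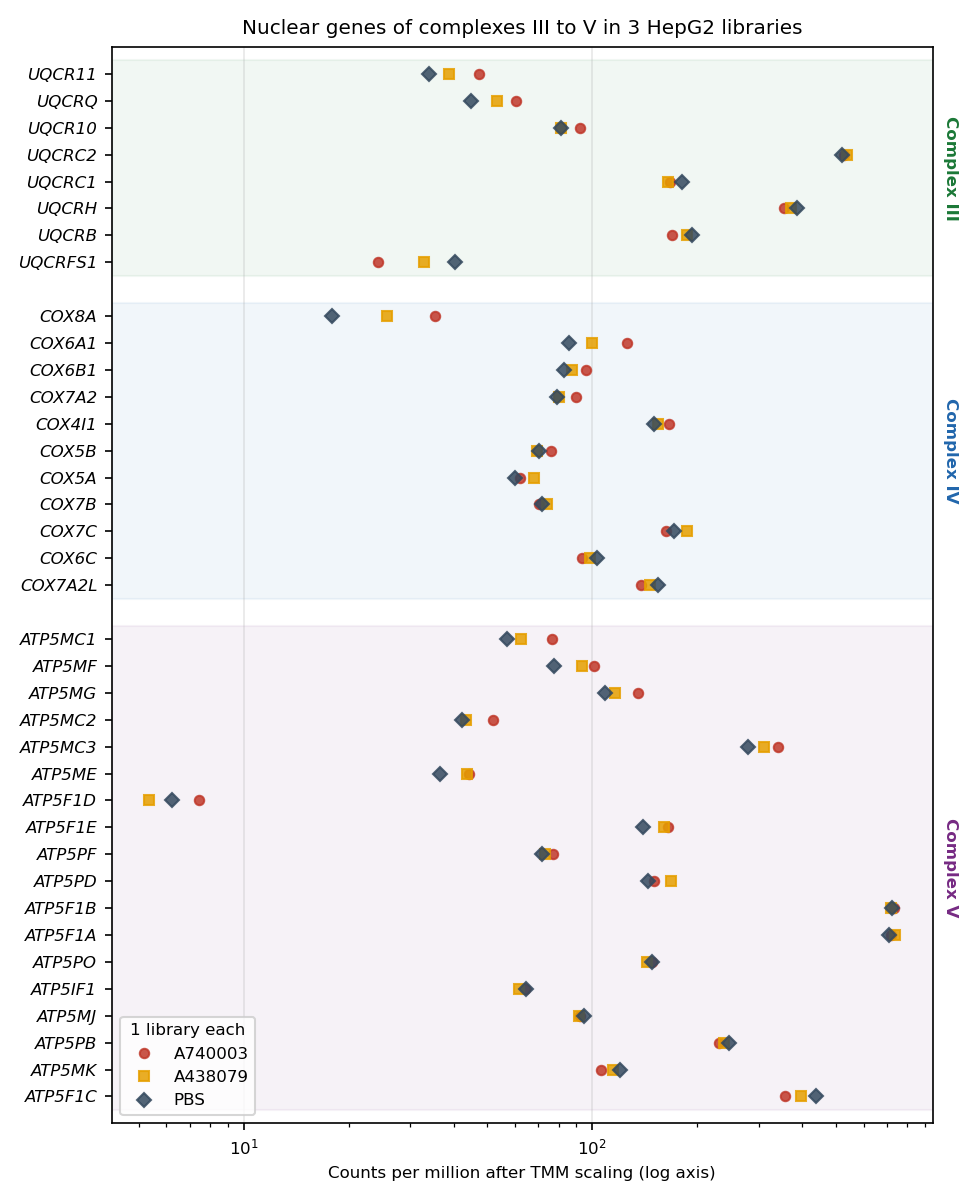
CPM after TMM scaling (log axis) of the 37 measured genes, by complex, with a circle for A740003, a square for A438079 and a diamond for PBS, 1 library each. The A740003 circle stands farthest right of the PBS diamond for COX8A and farthest left of it for UQCRFS1, and the 3 points of most other genes lie close together.

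**Figure D2:**
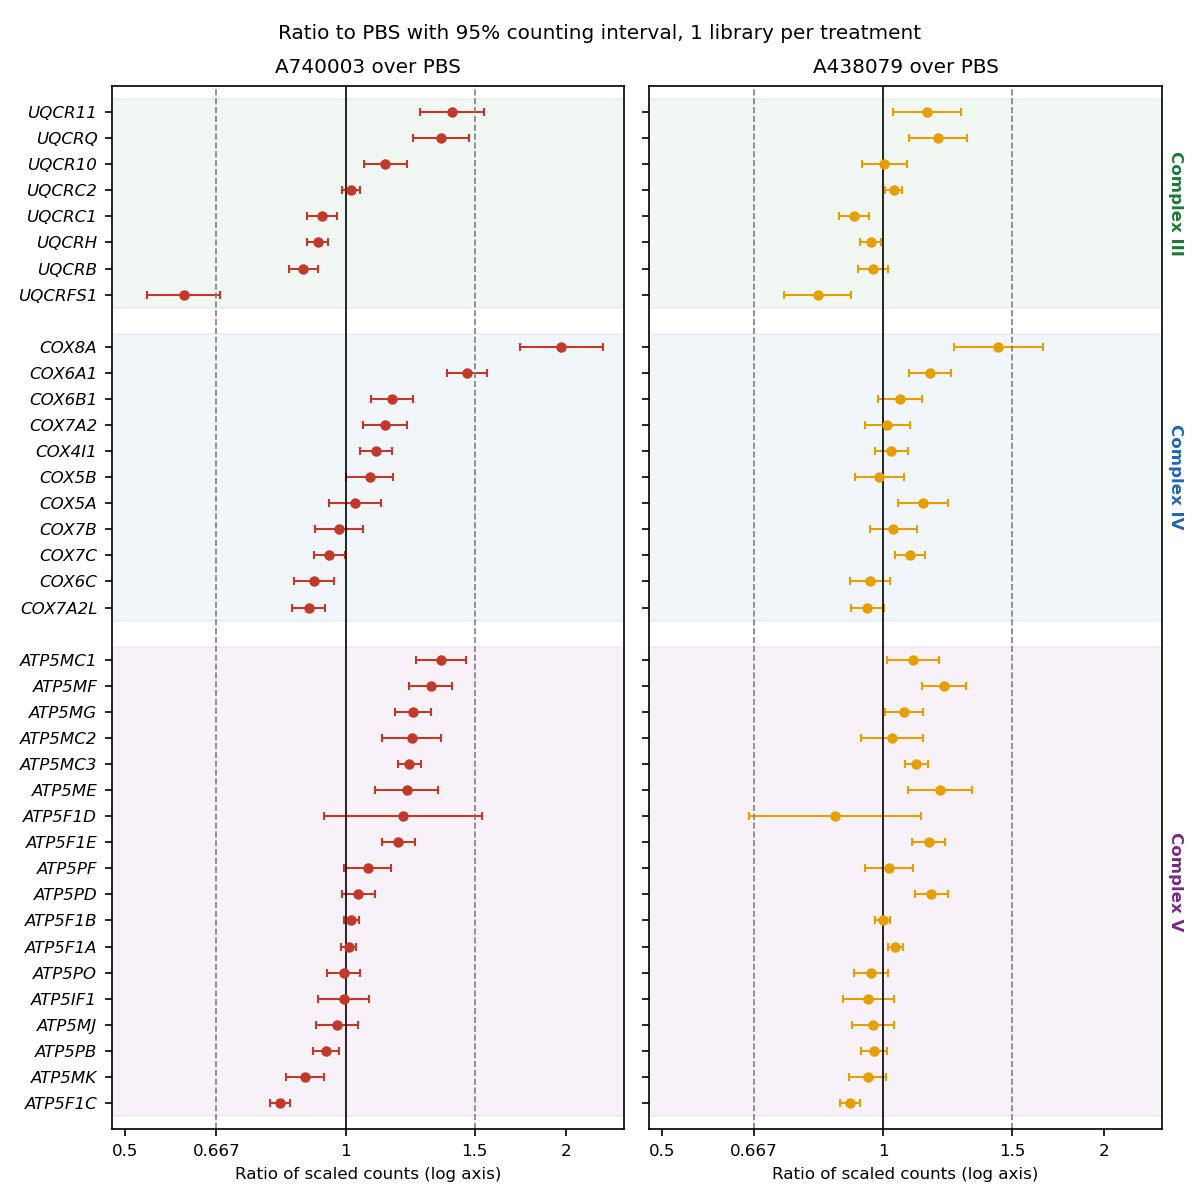
Ratio of scaled counts to PBS (log axis) with the exact 95% counting interval for A740003 (left) and A438079 (right), ordered within each complex by the A740003 ratio. Dashed lines mark 1.5 and its inverse, and in the left panel COX8A at 1.97 and UQCRFS1 at 0.602 lie beyond them.

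Short stretches of DNA before the start of transcription are shown for the highest and the lowest gene of each complex by the A740003 ratio, among genes with a single start in the promoter table. They are RefSeq sequences on GRCh38.p14, 5′ to 3′ on the strand of the gene, and, apart from UQCRFS1, up to 48 of the last bases lie inside the gene as GENCODE release 29 draws it. Capitals mark letters that match a motif of NRF1 (GCGCA, any base, GCGC), of ETS factors such as GABPA (CCGGAAG) or of YY1 (AANATGGCG), searched on both strands, and the ETS and YY1 letters can overlap. These factors are known for driving nuclear respiratory genes.

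Complex III held UQCR11 as its highest gene and UQCRFS1 as its lowest. The UQCR11 bases (chr19:1605463-1605662, minus strand) hold 2 NRF1 and 2 ETS matches. The RefSeq start of UQCRFS1 lies inside the gene as GENCODE release 29 draws it, so only 30 bases around its NRF1 match are shown (chr19:29213163-29213192, minus strand).
UQCR11: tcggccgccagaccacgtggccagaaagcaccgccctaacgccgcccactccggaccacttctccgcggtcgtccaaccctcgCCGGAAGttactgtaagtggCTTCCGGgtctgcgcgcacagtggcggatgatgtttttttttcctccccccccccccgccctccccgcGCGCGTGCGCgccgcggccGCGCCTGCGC
UQCRFS1: gcgcctcctcGCGCCTGCGCcgtggttgga
UQCRFS1 (ENSG00000169021; chr19:29205321-29213541, minus strand, GRCh38), whose iron-sulfur protein takes the electron from ubiquinol, had 484 counts with A740003, 640 with A438079 and 787 with PBS. The A740003 library was the lowest and the PBS library the highest. UQCRFS1 fell to 0.602 times PBS (0.536 to 0.675) with A740003 and stood at 0.815 times (0.733 to 0.905) with A438079, and A740003 stood at 0.739 times A438079 (0.655 to 0.832). The FPKM ratios, the authors' values per transcript length, were 0.600 and 0.797. Its counts were partly fractional, and its pseudogene rows held 3, 6 and 6 counts, at most 0.929% of the sum in any library.

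The core proteins of complex III, UQCRC1 and UQCRC2, are large subunits on the matrix side. UQCRC1 had 3327 counts with A740003, 3195 with A438079 and 3507 with PBS, and its ratios over PBS were 0.928 (0.885 to 0.973) and 0.913 (0.870 to 0.958). UQCRC2 had 10497, 10421 and 10094 counts in the same order of libraries, at 1.02 (0.990 to 1.05) and 1.03 (1.01 to 1.06) times PBS. The PBS library was the highest for UQCRC1 and the lowest for UQCRC2, by small margins.

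The small subunits of complex III did not share a direction. UQCR11 had 941 counts with A740003, 755 with A438079 and 659 with PBS, at 1.40 (1.26 to 1.55) and 1.15 (1.03 to 1.28) times PBS. UQCRQ, which lies next to cytochrome b, had 1202, 1034 and 872 counts, at 1.35 (1.23 to 1.47) and 1.19 (1.08 to 1.30) times PBS. In FPKM, UQCRQ stood at 1.06 and 0.988 times PBS and UQCR11 at 1.19 and 1.253 times. So the counts placed the A740003 library highest for both genes, while FPKM placed A438079 highest for UQCR11 and left UQCRQ near 1. UQCR10 stood at 1.13 times PBS with A740003 (1.06 to 1.21) and at 1.004 times with A438079 (0.935 to 1.08). UQCRB, a subunit on the matrix side, had 3366, 3633 and 3757 counts, at 0.876 (0.836 to 0.918) and 0.969 (0.925 to 1.01) times PBS, so the A740003 library was the lowest. UQCRH, the hinge protein gene that helps cytochrome c dock, had 7032 counts with A740003, 7204 with A438079 and 7502 with PBS, a step down in each antagonist library, at 0.917 (0.887 to 0.947) and 0.962 (0.931 to 0.994) times PBS. UQCRHL, its near-copy, had 0, 0 and 4 counts, so nearly all reads of the pair were assigned to UQCRH.

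For complex IV the highest gene was COX8A and the lowest with a promoter entry and a single start was COX7C. The COX8A bases (chr11:63974420-63974619, plus strand) hold 1 ETS match, and the COX7C bases (chr5:86617741-86617940, plus strand) hold none of the motif letters.
COX8A: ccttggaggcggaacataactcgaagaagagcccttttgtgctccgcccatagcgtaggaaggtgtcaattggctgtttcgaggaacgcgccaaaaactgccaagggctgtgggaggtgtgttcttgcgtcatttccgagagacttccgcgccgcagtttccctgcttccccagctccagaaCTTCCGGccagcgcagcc
COX7C: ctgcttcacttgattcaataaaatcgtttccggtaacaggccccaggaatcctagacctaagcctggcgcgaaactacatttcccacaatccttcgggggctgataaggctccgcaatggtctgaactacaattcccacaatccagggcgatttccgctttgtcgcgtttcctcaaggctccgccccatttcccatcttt
COX8A (ENSG00000176340; chr11:63974607-63976543, plus strand, GRCh38) had 701 counts with A740003, 499 with A438079 and 348 with PBS, all within 0.005 of a whole number. The A740003 library was the highest and the PBS library the lowest. COX8A rose to 1.97 times PBS (1.73 to 2.25) with A740003. With A438079 it stood at 1.44 times, short of the size rule, with an interval that lay above 1 and reached 1.65, and A740003 stood at 1.37 times A438079 (1.22 to 1.54). FPKM ratios over PBS were smaller, at 1.85 with A740003 and 1.28 with A438079.

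COX6A1, the gene of the liver-type form of subunit 6A, had 2494 counts with A740003, 1931 with A438079 and 1667 with PBS. Again the A740003 library was the highest and PBS the lowest. The ratios over PBS were 1.46 (1.37 to 1.56) with A740003, just under the size rule, and 1.16 (1.09 to 1.24) with A438079. FPKM gave 1.38 and 1.05.

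The remaining subunit genes of complex IV stayed within narrow limits. COX4I1, which binds ATP and ADP in regulation of the enzyme, had 3288 counts with A740003, 2992 with A438079 and 2919 with PBS, at 1.10 (1.05 to 1.16) and 1.03 (0.975 to 1.08) times PBS. COX6B1, which faces the intermembrane space, had 1912, 1702 and 1615 counts, at 1.16 (1.08 to 1.24) and 1.06 (0.986 to 1.13) times PBS. COX7A2, the liver-type form of subunit 7A, had 1784, 1561 and 1542 counts, at 1.13 (1.06 to 1.21) and 1.01 (0.944 to 1.09) times PBS. In these 3 genes the A740003 library was the highest, and the A438079 library could not be told from PBS by counting. COX5B stood at 1.08 times PBS with A740003 and 0.988 with A438079, and COX5A at 1.03 and 1.13. COX7B had 1397, 1438 and 1395 counts, with both intervals over PBS including 1.

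A few complex IV genes stood below PBS. COX6C had 1852 counts with A740003, 1917 with A438079 and 1999 with PBS, at 0.906 (0.850 to 0.966) and 0.961 (0.902 to 1.02) times PBS. COX7A2L, which joins complexes III and IV into supercomplexes, had 2733, 2850 and 3001 counts, at 0.891 (0.845 to 0.938) and 0.951 (0.903 to 1.002) times PBS. Both genes were lowest with A740003 and highest with PBS. COX7C was the only gene of the 37 whose intervals over PBS lay on opposite sides of 1, and it had 3233, 3616 and 3330 counts. The ratio was 0.950 in the A740003 library (0.905 to 0.997) but 1.09 in the A438079 library (1.04 to 1.14), and its A740003 level was 0.873 times its A438079 level (0.832 to 0.916). The A438079 library stood above both others.

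Tissue forms of complex IV subunits were those of liver. COX4I2 of lung, COX6A2 and COX7A1 of heart and muscle, and COX6B2 of testis were listed at 0 in all 3 libraries, where 3 counts are 0.152 CPM with A740003, 0.153 with A438079 and 0.155 with PBS. COX7B2 had 0, 0 and 1 counts, and COX8C, another testis form, had 2, 0 and 0. COX8BP and ATP5MGL were at 0 throughout, which with UQCRHL makes 9 genes of the 46 that were not compared.

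In complex V, ATP5MC1 was the highest gene and ATP5F1C the lowest. The ATP5MC1 bases (chr17:48892587-48892786, plus strand) hold none of the motif letters, and those of ATP5F1C (chr10:7787977-7788176, plus strand) hold 1 NRF1 match.
ATP5MC1: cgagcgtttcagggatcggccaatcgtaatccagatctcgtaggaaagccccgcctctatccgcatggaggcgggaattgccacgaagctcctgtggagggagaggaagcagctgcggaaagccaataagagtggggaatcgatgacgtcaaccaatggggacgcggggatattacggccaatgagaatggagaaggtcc
ATP5F1C: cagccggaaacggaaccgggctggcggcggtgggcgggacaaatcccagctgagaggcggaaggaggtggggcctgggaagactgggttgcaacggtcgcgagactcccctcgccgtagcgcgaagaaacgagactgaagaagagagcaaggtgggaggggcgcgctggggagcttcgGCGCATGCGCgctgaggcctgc
The catalytic head of the enzyme stood close to PBS. ATP5F1B, the beta subunit that makes ATP, had 14607 counts with A740003, 13984 with A438079 and 14026 with PBS, at 1.02 (0.995 to 1.04) and 0.999 (0.975 to 1.02) times PBS. ATP5F1A, the alpha subunit, had 14276, 14352 and 13827 counts, at 1.01 (0.986 to 1.03) and 1.04 (1.02 to 1.06) times PBS. These deepest counted genes of the list held within 5% of PBS in both antagonist libraries.

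The central stalk that turns inside the head behaved otherwise. ATP5F1C, its gamma subunit, had 7104 counts with A740003, 7684 with A438079 and 8531 with PBS, lowest with A740003 and highest with PBS. It stood at 0.815 (0.789 to 0.841) and 0.902 (0.875 to 0.931) times PBS, and FPKM gave 0.802 and 0.874. ATP5F1E, the epsilon subunit, had 3268, 3123 and 2709 counts, at 1.18 (1.12 to 1.24) and 1.15 (1.10 to 1.22) times PBS, so both antagonist libraries stood above PBS. ATP5F1D, the delta subunit, was the least counted, with 148, 104 and 121 counts, and both intervals over PBS included 1. Its A740003 level was 1.39 times its A438079 level (1.07 to 1.80), the highest such ratio of the 37 but one of the least precise.

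All c-ring genes stood above PBS with A740003. ATP5MC1, ATP5MC2 and ATP5MC3 encode the same mature c subunit with different import sequences. ATP5MC1 had 1522 counts with A740003, 1210 with A438079 and 1104 with PBS, at 1.35 (1.247 to 1.46) and 1.10 (1.01 to 1.19) times PBS. ATP5MC2 had 1033, 843 and 821 counts, at 1.23 (1.12 to 1.35) and 1.03 (0.933 to 1.13) times PBS. ATP5MC3 had 6793, 6025 and 5435 counts, at 1.22 (1.18 to 1.27) and 1.11 (1.07 to 1.15) times PBS. For each of them the A740003 library was the highest and PBS the lowest in counts. In FPKM, ATP5MC2 was lowest with A438079, at 0.948 times PBS. Shares of the c-ring counts moved by a few points: by exact binomial 95% intervals ATP5MC3 held 72.7% (71.8 to 73.6) of them in the A740003 library, 74.6% (73.6 to 75.5) in the A438079 library and 73.8% (72.8 to 74.8) in the PBS library. Counts favour longer transcripts, and the effective length was 658 bases for ATP5MC3 and 271 for ATP5MC1 with PBS. Per length, in FPKM, ATP5MC3 held 53.8% with A740003, 57.4% with A438079 and 56.5% with PBS, and ATP5MC1 held 31.8%, 28.5% and 27.8%.

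Among the small membrane subunits, ATP5MF (subunit f) had 2012 counts with A740003, 1818 with A438079 and 1505 with PBS, at 1.31 (1.22 to 1.40) and 1.21 (1.13 to 1.30) times PBS. ATP5ME (subunit e) had 878, 847 and 709 counts, at 1.21 (1.10 to 1.34) and 1.20 (1.08 to 1.32) times PBS. ATP5MG (subunit g) had 2679, 2260 and 2119 counts, at 1.24 (1.17 to 1.31) and 1.07 (1.01 to 1.13) times PBS. PBS was the lowest library for these genes, which take part in dimers of the enzyme. ATP5MK, which is also found at the dimer, had 2098, 2220 and 2333 counts, at 0.880 (0.829 to 0.933) and 0.953 (0.899 to 1.01) times PBS, and ATP5MJ stood at 0.973 and 0.968 with both intervals including 1. In FPKM the A438079 ratios of ATP5MF and ATP5ME were 0.986 and 0.939, so their place above PBS with A438079 depended on the unit. The readthrough gene ATP5MF-PTCD1, which overlaps ATP5MF, had 100, 110 and 142 counts.

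The peripheral stalk, which holds the head still, held no called gene. ATP5PB stood at 0.942 times PBS with A740003 (0.904 to 0.981) and 0.971 with A438079, ATP5PO at 0.994 and 0.962, and ATP5PF at 1.07 and 1.02. ATP5PD had 2990 counts with A740003, 3264 with A438079 and 2808 with PBS, highest with A438079, at 1.04 (0.989 to 1.10) and 1.16 (1.11 to 1.22) times PBS. ATP5IF1, the inhibitor that stops the enzyme from running backward, had 1276, 1197 and 1256 counts, at 0.994 (0.919 to 1.08) and 0.955 (0.881 to 1.03) times PBS.

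Per transcript length, levels of the 37 genes in FPKM ran from 8.68 (UQCRFS1) to 1260 (UQCRH) with A740003, from 11.3 (ATP5F1D) to 1263 (UQCRH) with A438079, and from 13.8 (ATP5F1D) to 1448 (UQCRH) with PBS. UQCRFS1 thus had a level per length far below its complex III partners in each library.

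Summed over each complex, the nuclear genes stood at 0.975 to 1.06 times PBS. The mitochondrial genes of complexes IV and V summed lower with A740003, at 0.786 and 0.735 times PBS, while MT-CYB, the mitochondrial gene of complex III, stood at 0.929 times, and with A438079 complexes IV and V stood at 0.934 and 0.953 and MT-CYB at 1.03 times. The nuclear genes of the list, taken over all 3 complexes, held 0.620% of counts with A740003, 0.608% with A438079 and 0.605% with PBS. Their summed scaled counts stood at 1.02 times PBS with each antagonist (1.01 to 1.03 in both). The mitochondrial genes of the same complexes (MT-CYB, MT-CO1, MT-CO2, MT-CO3, MT-ATP6 and MT-ATP8) summed to 0.793 times PBS in the A740003 library (0.790 to 0.795) and to 0.944 times in the A438079 library (0.941 to 0.947). No gene of the 6 was called, and all 6 had intervals below 1 with A740003. With A438079, in counts, 4 lay below and MT-CYB and MT-ATP8 above. In FPKM, MT-CYB stood at 0.986 and MT-ATP8 at 0.819 times PBS with A438079, and 0 of the 6 lay above PBS. MT-ATP6, the proton channel subunit of complex V, had 60432 counts with A740003, 75193 with A438079 and 82368 with PBS, at 0.718 (0.710 to 0.725) and 0.914 (0.905 to 0.923) times PBS. Nuclear counts per 100 mitochondrial counts were 97.9 with A740003, 75.1 with A438079 and 70.1 with PBS in complex V, 3.99, 3.29 and 2.95 in complex IV, and 41.2, 37.9 and 39.2 in complex III. That ratio was highest with A740003 in each complex, and it is a ratio of counts, not of molecules per enzyme.

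**Figure D3:**
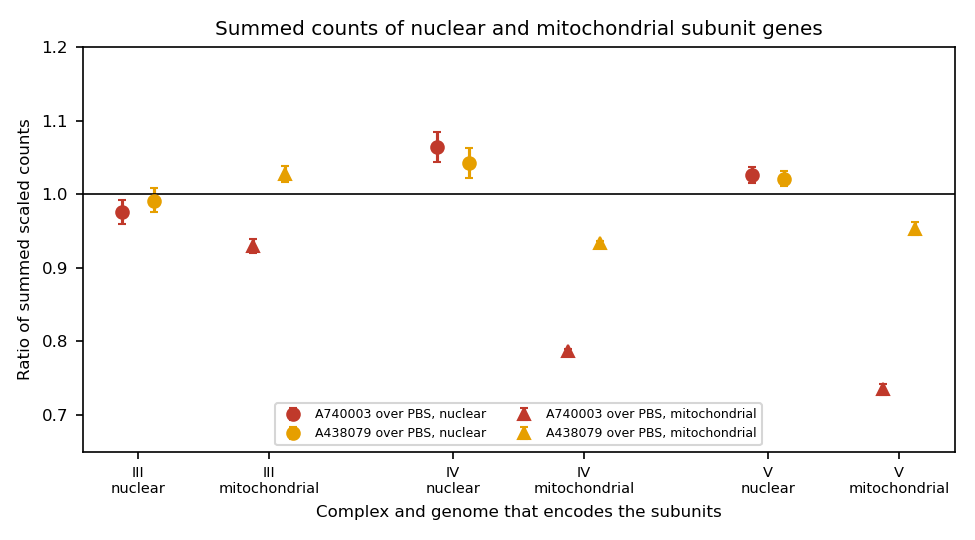
Summed scaled counts over PBS of nuclear (circles) and mitochondrial (triangles) subunit genes of each complex, with exact 95% counting intervals, for A740003 and A438079 (1 library each). The nuclear sums lie between 0.975 and 1.06, and the mitochondrial sums lie at 0.929, 0.786 and 0.735 for complexes III, IV and V with A740003, and at 1.03, 0.934 and 0.953 with A438079.

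Genes that build or serve the complexes held few calls. Of 11 genes of complex III assembly and cytochrome c, none was called with either antagonist. CYC1, the gene of cytochrome c1, is itself a subunit gene of complex III. The name rule missed it, so it is in none of the complex III medians and sums given above. CYC1 stood at 0.776 (0.706 to 0.853) and 0.800 (0.728 to 0.879) times PBS, with both intervals below 1. UQCC5 stood at 1.37 (1.02 to 1.84) and 1.40 (1.05 to 1.89) times. Another list held 28 genes of complex IV assembly or associated with that complex. From it SCO2, a copper chaperone, was called higher with A740003, with 169 counts against 114 with A438079 and 98 with PBS. It rose to 1.69 times PBS (1.31 to 2.19) and stood at 1.17 times with A438079 (0.882 to 1.54), and its counts were partly fractional. This 1 call among 28 genes lies near the 3.2% of all genes called higher with A740003. The median log2 ratio of these 28 genes with A740003 was -0.08, with 7 intervals above 1 and 10 below, and none was called lower. TACO1, an activator of MT-CO1 translation, stood lowest at 0.720 times PBS (0.659 to 0.786), with COX18 at 0.769, COA6 at 0.782 and HIGD1A at 0.795 times. None of the 6 genes of complex V assembly was called, with ATP23 at 1.38 (1.06 to 1.80) and FMC1 at 1.37 (1.09 to 1.73) times PBS with A740003. Neither the 8 complex II genes nor the 7 carrier and porin genes held a call, with SDHAF1, a complex II assembly factor, at 1.10 and 0.774 times PBS and SLC25A4, an ADP/ATP carrier, at 1.21 and 1.08 times.

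Among 12 regulators of respiratory genes, PPRC1 and YY1 were called lower with A740003 and PPRC1 with A438079. Of all genes compared, 10.6% and 9.44% were called lower. With only 12 genes, 2 and 1 calls lie near these shares. PPRC1, a coactivator of the PGC-1 family, had 254 counts with A740003, 264 with A438079 and 399 with PBS, and fell to 0.623 (0.530 to 0.731) and 0.663 (0.565 to 0.776) times PBS. YY1, a zinc finger factor, had 821, 991 and 1224 counts, fell to 0.656 times PBS (0.600 to 0.717) with A740003 and stood at 0.811 times (0.745 to 0.883) with A438079. PPARGC1A, the coactivator PGC-1 alpha, had 358, 316 and 243 counts, at 1.44 (1.22 to 1.70) and 1.30 (1.10 to 1.55) times PBS, and was not called. PPARGC1B, a related coactivator, had 39, 28 and 23 counts, at 1.66 (0.966 to 2.91) and 1.22 (0.677 to 2.22) times PBS, and both intervals included 1. NRF1 itself stood at 0.978 and 1.13 times PBS. Of the 12 regulators, 8 lay below PBS with A740003, with 2 intervals above 1 and 5 below. With A438079, 4 lay below PBS and 8 above, with 3 intervals above 1 and 4 below.

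Of the 37 measured genes, 31 had a promoter entry of 250 bases before to 50 after a start. Letters of NRF1 were found in 8 of them (25.8%), of ETS in 14 (45.2%) and of YY1 in 5 (16.1%), against 6.98%, 12.2% and 3.85% of 27305 genes in the table. At least 1 of the 3 was found in 20 (64.5%), against 20.0% of the 27305 genes. Those are all genes in the promoter table, measured here or not, while the 31 all passed the CPM minimum. The median log2 ratio of A740003 over PBS was 0.18 for the 14 genes with ETS letters and -0.01 for the 17 without, -0.02 for the 8 with NRF1 letters and 0.10 for the 23 without, and 0.10 and 0.05 for YY1. With A438079 the medians with and without the letters were 0.09 and 0.01 for ETS, -0.05 and 0.05 for NRF1, and 0.01 and 0.05 for YY1, so the order turned for YY1. The printed examples show both sides. NRF1 letters stand before the RefSeq start of UQCR11, at 1.40 times PBS. They also stand before the RefSeq starts of ATP5F1C and UQCRFS1, both below PBS. As GENCODE release 29 draws ATP5F1C and UQCRFS1, these letters lie inside the gene. The last 28 of the UQCR11 bases likewise lie inside that gene. They take in its last NRF1 match and nearly all of the other. A match is a description of these letters only.

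Other sets of nuclear genes were measured beside them. The 37 complex I subunit genes had medians of 0.19 with A740003 and 0.11 with A438079 on the log2 scale, with 2 and 1 called higher, none called lower, and 62.2% and 35.1% of intervals above PBS. The 36 proteasome subunit genes had medians of 0.03 and 0.04, with 1 and 0 called higher, none called lower, and 38.9% and 33.3% of intervals above PBS. In counts, the genes of complexes III to V, at 0.06 and 0.04, stood between them with A740003 and level with the proteasome with A438079. In FPKM their medians were 0.02 and -0.07, under both other sets with each antagonist. The FPKM medians were 0.05 and -0.02 for the proteasome and 0.17 and -0.003 for complex I. The order of the sets thus depended on the unit. These are descriptions, and the differences between the sets were not tested.

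Transcript GC content moved with the ratios. Across the 37 genes, Spearman's rho between GC content and the A740003 ratio over PBS was 0.64, and across the 37 complex I genes 0.48. Over all 325 genes with an effective length under 400 bases it was 0.41, and over all 11902 genes with both values -0.37. With A438079 the same values were 0.28, 0.19, 0.15 and -0.46. All points of a comparison share the same libraries, and genes are not replicates. The 19 genes with GC content at or above the median of the list stood at a median log2 ratio of 0.26 in the A740003 library, and the 18 below it at -0.06. Genes of this list are short, with a median effective length of 430 bases against 2054 for all genes, and fragments implied by the FPKM values were 261 bases with A740003, 253 with A438079 and 277 with PBS in 28 short single-transcript genes. The part of fragment length and GC content in the results was not tested. With the trend of all genes in GC content and length removed, COX8A stood at log2 ratios of 0.88 with A740003 and 0.51 with A438079, UQCRFS1 at -0.83 and -0.39, and the medians of the list at 0.04 and 0.03. The medians of complexes III, IV and V were then -0.03, 0.04 and 0.08 with A740003, and -0.03, 0.05 and 0.03 with A438079. With A740003, complex IV thus no longer stood above complex V.

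**Figure D4:**
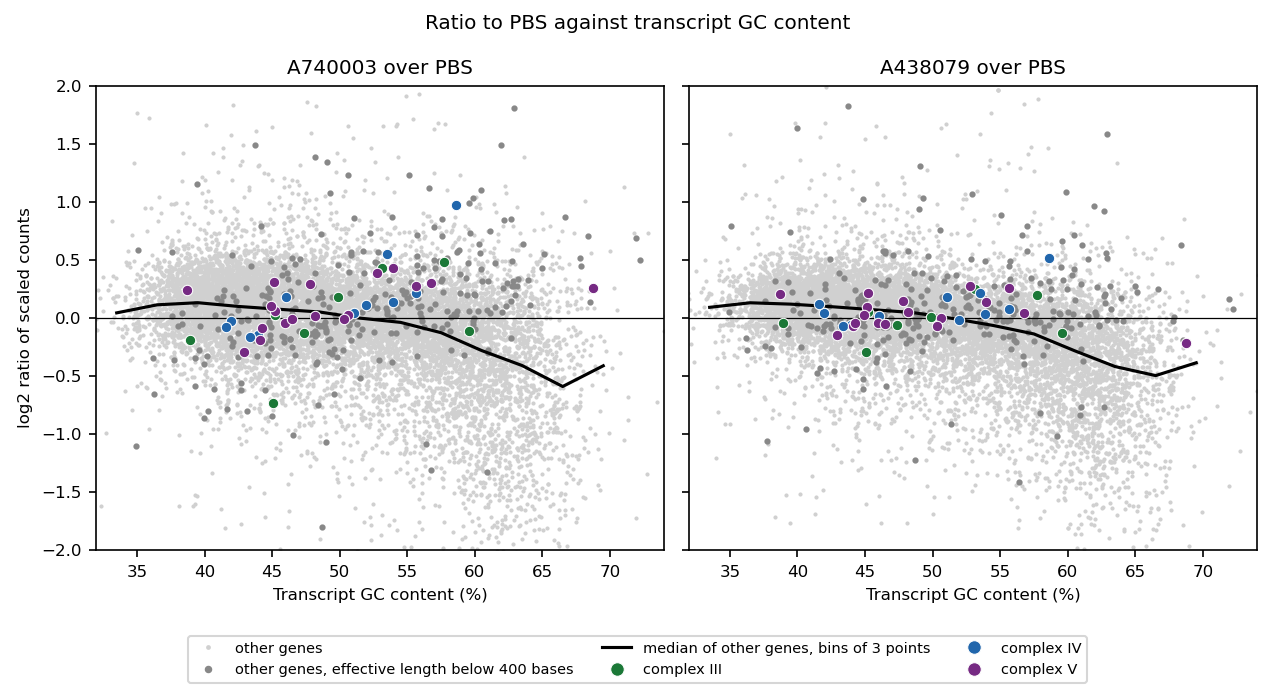
log2 ratio to PBS against transcript GC content (%) for A740003 (left) and A438079 (right), with genes of complexes III, IV and V in colour, other genes in grey (darker when the effective length is below 400 bases) and the median of the other genes as a line. Points beyond the axis are not drawn, and in the left panel the coloured points climb with GC content (rho 0.64) while the line descends.

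FPKM gave other values than counts for several of these short genes. The median log2 FPKM ratio of the 37 was 0.02 with A740003 and -0.07 with A438079, and 21 and 12 genes lay above PBS in FPKM, against 23 and 22 in counts. Over all 12272 genes compared, the FPKM medians were -0.01 and -0.05, with 5909 and 5314 genes above PBS. Over the 325 genes with an effective length under 400 bases they were 0.03 and -0.10, with 169 and 110 above. UQCRC1 stood at 0.757 and 0.813 times PBS in FPKM and ATP5MK at 0.779 and 0.797, lower than in counts. ATP5MC1 stood at 1.47 with A740003, higher than in counts. COX8A and UQCRFS1 kept their sides in both units.

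**Figure D5:**
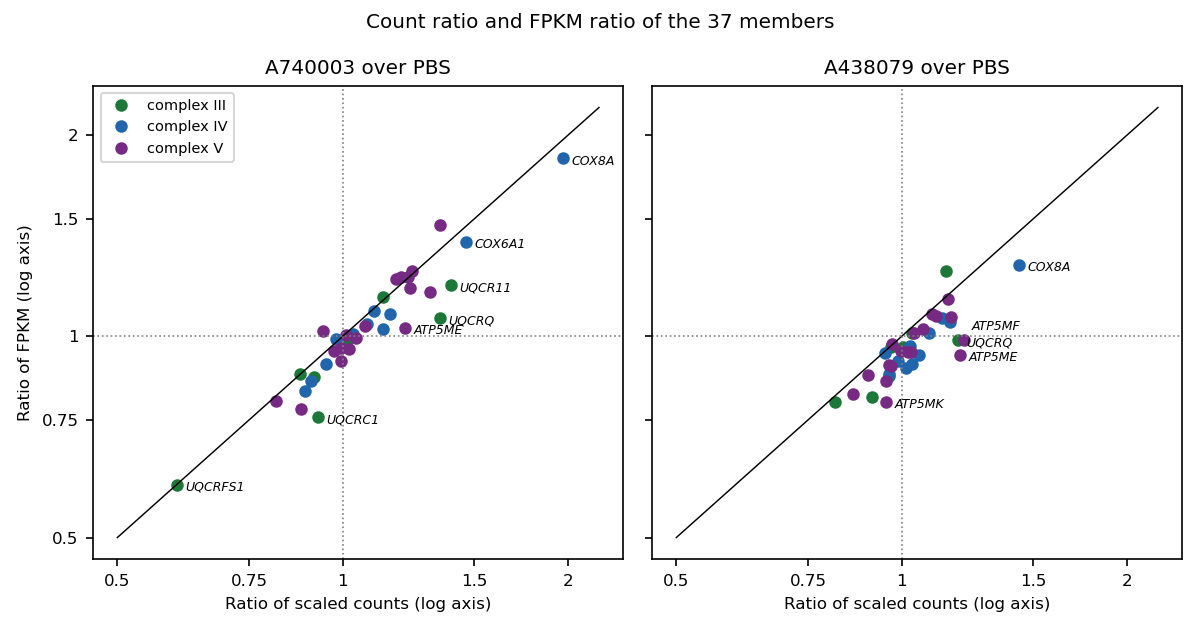
FPKM ratio against ratio of scaled counts, both over PBS on log axes, for the 37 genes, with A740003 on the left and A438079 on the right, and a line of equal values. Most A438079 points lie under the line, and several genes, among them ATP5MF, ATP5ME and UQCRQ, stand above 1 in counts and below 1 in FPKM there.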

How the data were processed

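RNA of HepG2 cells (1 library for each of A740003, A438079 and PBS) was extracted with an RNeasy kit and made into libraries with a SMARTer kit, per the labels' protocols. The authors deposited expected counts per gene, which need not be whole, and FPKM values, scaled by the authors for length and library size. Rows are human Ensembl genes, but the only build in the submitters' processing notes is GRCm38, of mouse. The aligner, the counter, the annotation and the strand setting were not given in the sources used here. Overlapping and antisense genes are therefore uncertain. Rows with no Ensembl identifier held at most 0.0853% of counts and stayed in the totals.

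Expected counts were rounded, and libraries were scaled by the TMM method of edgeR 4.0.16 under R 4.3.3. No count test was run, since each treatment is 1 library: an interval took its place. Genes that averaged 1 CPM or more, 12272 in all, were compared as ratios with the exact conditional binomial (Clopper-Pearson) 95% interval. A gene was called at a ratio of at least 1.5, or at most its inverse, with an interval that excluded 1. Log2 ratios had a pseudocount of 0.5 counts. A CPM of 1 was 19.4 to 19.7 counts. Genes on this list had 104 to 14607 counts in a library, and precision was set by them.

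Symbols, coordinates and GC content came from GENCODE release 29 (GRCh38), matched for 45 of 46 genes by identifier. Effective length was taken from the ratio of counts to FPKM. For the GC content and length trend, the median of the nearest genes in both ranks was subtracted. The ratios, intervals and calls were tested on simulated counts with known folds, drawn with counting error alone. The scaling, the trend removal and the motif search were not tested in that way. Genes with counts in every library were named as the highest and lowest 2 of each complex and comparison with a mean of at least 5 CPM, tissue forms, the c-ring and ATP5IF1. From each list of related genes, those called over PBS were named or, where none was, up to 2 with the largest ratios. NRF1, PPARGC1A, PPARGC1B, TACO1, COX18, COA6, HIGD1A, MT-CYB, MT-ATP8 and the counts of UQCRC2, ATP5F1A, ATP5F1B, ATP5F1E, ATP5MG and ATP5PD were added after their values were seen. The genes and lists were chosen with earlier results of these data known. Alternatives tried were upper quartile scaling, scaling by total counts or by size factors of DESeq2 1.42.0, other folds and filters, FPKM with pseudocounts of 0.1 and 1, counts not rounded, whole counts only, and sums with pseudogene rows. Of the promoter table, 6 measured genes were not matched. Of 37 promoters of measured genes, 28 had 20 bases shortly after the start found in a transcript, and that of UQCRFS1 had not.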

Additional observations from a re-analysis of the deposited data

Results flagged for a closer look

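COX7C, a small subunit gene of complex IV, stood on opposite sides of PBS in the 2 antagonist libraries, with both counting intervals excluding 1. Its ratio over PBS was 0.950 with A740003 and 1.09 with A438079. The counts were 3233 with A740003, 3616 with A438079 and 3330 with PBS, and the PBS library is shared by both ratios. The difference between the antagonists was not tested, as each treatment is 1 library. With the GC content and length trend removed, the log2 ratios were -0.00 and 0.12, and in FPKM the ratios were 0.910 and 1.01.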

How the results depend on the processing

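No paired analysis was possible because each treatment is 1 library. At a ratio of at least 5 to 4, 6 of the 37 genes were called higher with A740003 and 1 with A438079 over PBS, against 11.4% and 5.99% of all genes, and A740003 over A438079 had 3 higher and 1 lower, against 5.88% and 5.80%. At a fold of 2, 0 genes were higher and 0 lower with A740003, against 1.18% and 5.43% of all genes. Over the 16 genes with whole counts, 0 were called lower with A740003, since UQCRFS1 has fractional counts. The medians of log2 ratios there were 0.16 for complex III with A740003, -0.0693 for complex V with A438079, and 0.10 for complex III in A740003 over A438079, in each case over fewer genes. With FPKM at a pseudocount of 0.1, the A438079 medians were -0.0746 for all 37 genes, -0.0837 for complex IV and -0.0753 for complex V. At a pseudocount of 1 they were -0.0745, -0.0832 and -0.0751. The A438079 median over all genes compared was -0.0459 at a pseudocount of 0.1 and -0.0403 at 1, and the cause was not tested. The other 206 counts of calls and medians under the alternatives moved by less. Upper quartile scaling moved the median of all genes to -0.05 with each antagonist over PBS, and 19 and 17 of the 37 genes then lay above 1. Among ratios of single genes, 45 of 111 moved by more than their interval with FPKM and 16 with the GC content and length trend removed. Depth limits ATP5F1D most, with 104 to 148 counts.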
